A study of Mus musculus with 148 samples.

Results

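The Mcm6 exon 13 window is a stretch of 615 bp in the mouse Mcm6 gene, chr1:128337771-128338385 of GRCm38. In the direction of the gene, the window spans the end of intron 12, exon 13 and the start of intron 13. It was chosen for its readout: its CpGs were selected on their gain of DNA modification along the intestine of the P60 mice, so differences between P60 segments are given as a description with no test, and comparisons of P60 with other ages, which draw on the same P60 values, support nothing on their own. The members are the 28 cytosines in CG context in the window, 14 sites on each strand, out of 1102 such cytosines in the Lct-Mcm6 locus. Of these, 18 cytosines at 10 sites had more than 30 reads in all 148 samples, out of 590 in the locus, and these 18 are analysed.

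Cytosine modification was measured by bisulfite padlock probes in enterocytes isolated from intestinal villi of C57BL/6NCrl mice, a wild-type inbred strain. The strain field of the labels reads C57BL/6MCrl. Mice at postnatal day 60 (P60) gave 71 samples from 9 segments numbered from the proximal duodenum (1) to the distal ileum (9), with 8 samples per segment and 7 in segment 6. Mice at P6 gave 10 samples, 3 each from segments 1 and 3 and 4 from segment 7, and neither the P6 nor the P60 mice had the milk treatment. Mice at P90 had received milk in place of water from day 30 for 60 days, either lactose-free (lac-, 32 samples) or lactose-containing with added sucrose (LAC+, 35 samples), and were sampled in segments 1, 3, 4, 7 and 8 with 6 or 7 samples per group. The labels do not say which segments came from the same animal, nor whether segments were pooled over animals, and the spread between samples is the only error available. The deposited reads at cytosines of the locus summed to between 15226624 and 101149164 per sample, and the 18 CpGs had between 175 and 31838 reads each. At the lowest of these depths a level of 49.1% had a 95% Wilson interval from 41.8 to 56.5%, and at a depth of 2839 reads, the middle of all values, a level of 95.3% had an interval from 94.5 to 96.0%. These intervals cover counting error only.

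Mcm6 encodes a subunit of the helicase that unwinds DNA at replication, and lies next to Lct, the gene of the enzyme that cleaves milk lactose in enterocytes. In humans an enhancer of the lactase gene lies within an intron of MCM6, and sequence differences there are known for keeping lactase on in adults. Modification of CpGs in an enhancer often goes with a less active enhancer, and it is read out after bisulfite conversion, which does not separate methylcytosine from hydroxymethylcytosine.

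The CpGs are numbered 1 to 14 by increasing coordinate, with + or - for the strand. Mcm6 runs on the minus strand, so CpG 14 in intron 12 is nearest to its promoter and CpG 1 in intron 13 is nearest to Lct, whose start lies 9453 bp away. CpGs 1 to 5 are in intron 13 and CpGs 6 to 13 in exon 13, which spans chr1:128338116-128338277. Both strands were analysed of CpG 1 (128337771 and 128337772), CpG 5 (128338093 and 128338094), CpG 6 (128338118 and 128338119), CpG 7 (128338135 and 128338136), CpG 8 (128338156 and 128338157), CpG 9 (128338177 and 128338178), CpG 10 (128338181 and 128338182) and CpG 11 (128338194 and 128338195). Of CpG 3 (128337892) and CpG 14 (128338385) the minus strand alone was analysed. The other 10 cytosines are not analysed: the plus strands of CpG 3 (128337891) and CpG 14 (128338384) had at most 29 reads in any sample, CpG 2 (128337833 and 128337834) lay in a probe arm or between probes and passed 30 reads in 2 samples at most, and CpG 4 (128338061 and 128338062), CpG 12 (128338228 and 128338229) and CpG 13 (128338234 and 128338235) lay between probes with at most 3 reads.

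The sequences below, plus strand 5′ to 3′ from RefSeq GRCm38.p6, show the CpGs on which the results turn, with the CG letters in capitals. The first is the dense block chr1:128338083-128338205, which holds CpGs 5 to 11 in that order. The others are the isolated sites CpG 1 (chr1:128337757-128337786), CpG 3 (chr1:128337877-128337906) and CpG 14 (chr1:128338370-128338399).
Dense block, CpGs 5 to 11: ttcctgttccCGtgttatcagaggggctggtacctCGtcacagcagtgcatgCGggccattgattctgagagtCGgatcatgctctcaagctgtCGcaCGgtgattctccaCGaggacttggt
CpG 1: ataatgcccacaccCGccacacactgatta
CpG 3: ataggtttctcttgCGtaagtactcacctg
CpG 14: cacacacacttgatCGactacattaaatgt

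The window was rich in CpGs for this locus. It held 14 CG sites, against a median of 7 in 144 tiles of the same length across the captured locus, of which 9.03% held 14 or more. Searched on both strands, the letters GATAA, bound by GATA factors, occurred 4 times, and 54.9% of the tiles held them at least once. The minus-strand match at chr1:128338097-128338101 lies between CpG 5 and CpG 6, and the others lie outside the dense block. The letters AGGNGGC, part of the CTCF motif, and GTTAAT, part of the HNF1 motif, were not in the window, while 31.9% and 14.6% of tiles held them. The authors reported CTCF binding in this region of Mcm6, by ChIP-qPCR in adult mice and in public ChIP-seq data. The absence of AGGNGGC, only a part of the motif, therefore does not show an absence of binding.

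Strand and probe could not be told apart. One plus-strand probe (copied stretch 128338093 to 128338194) covered CpGs 5+ to 11+ with a median of 1148 reads, and one minus-strand probe covered CpGs 5- to 10- with a median of 5276.5 reads. CpG 1+, CpG 1-, CpG 3- and CpG 14- each had a probe of their own, with medians of 1455.5, 415.5, 4614 and 497 reads. CpG 11- lies in the arm of the minus-strand probe, the stretch where the probe itself anneals. It read 2.15% in P60 segment 3 and 9.91% in segment 9, where CpG 11+ on the opposite strand read 24.5 and 83.7%. CpG 11- is therefore counted with the 18 but given apart, and not read as a level of the site.

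Along the P60 intestine, single CpGs of the window shared a direction but not a level. In segment 3, where most were lowest, group means outside the arm ran from 12.5% ± 2.51 (SD, n = 8) at CpG 5- to 62.6% ± 6.30 at CpG 9+, and in segment 9 from 63.6% ± 6.46 at CpG 5- to 95.5% ± 1.28 at CpG 10+. All 18 had no overlap between the samples of segments 3 and 9. This describes the choice of the window, and nothing is read from it, with no share over all CpGs of the locus beside it. The rise between these segments ran from 31.9 percentage points at CpG 1- to 63.2 at CpG 8- outside the arm. CpG 9+ was thus the most modified position proximally and rose by only 32.1 points to 94.7%, whereas CpG 8+, 21 bp away in the same reads, began at 34.4% and reached 91.0%.

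**Figure D1:**
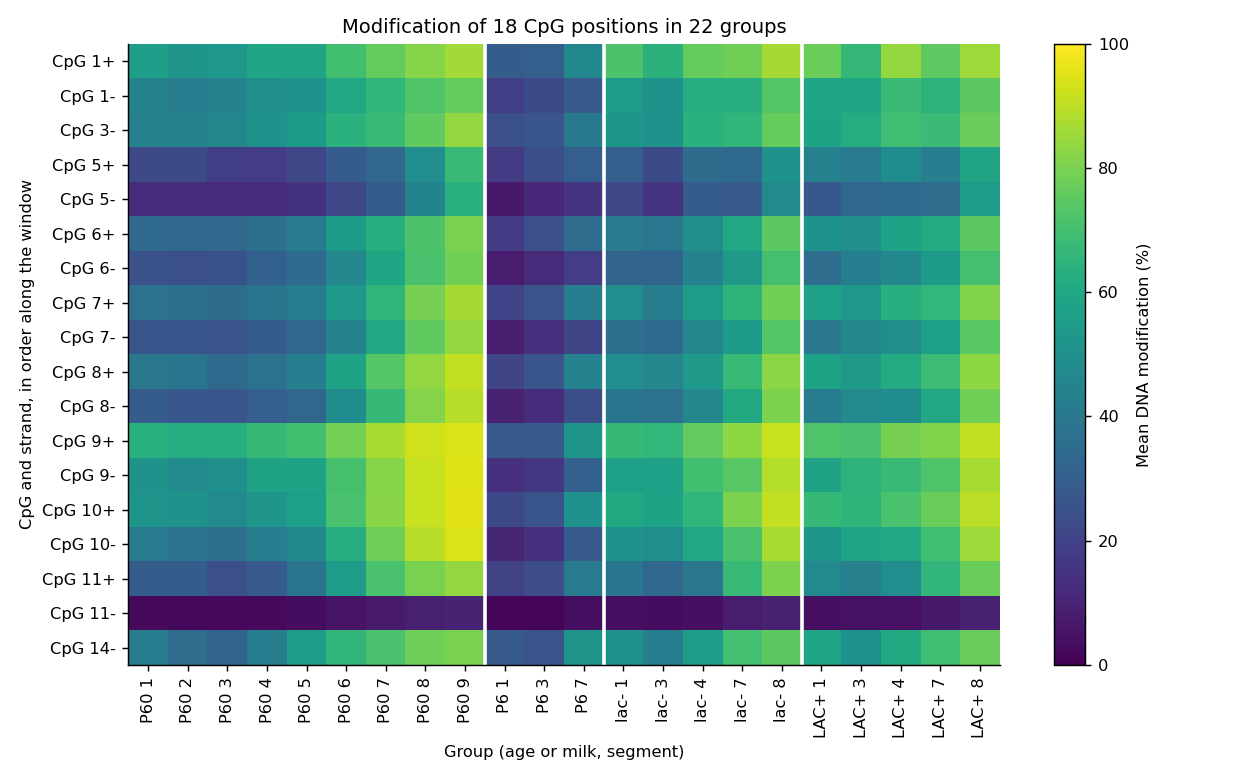
Mean DNA modification (colour, percent) of the 18 analysed CpG positions (rows, in order along the window) in the 22 groups (columns: P60 segments 1 to 9, P6 segments 1, 3 and 7, and lac- and LAC+ milk at P90, segments 1, 3, 4, 7 and 8). CpG 5 stays low to segment 7 of P60, CpGs 9 and 10 exceed 94% in segment 9, and CpG 11-, in a probe arm, stays under 10%.

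The order in which CpGs gained modification along the P60 intestine was read from the segment, interpolated between segment means, at which each reached the midpoint of its rise from segment 3 to segment 9. CpG 14- in intron 12 was first, at 5.11. CpG 11+ (5.92), CpG 9+ (5.96), CpG 1+ (6.0) and CpG 10+ (6.04) followed. CpGs 7+ (6.59) and 7- (6.67) were late, and both strands of CpG 5 were last, at 7.55 for CpG 5- and 7.63 for CpG 5+. The remaining positions lay between 6.13 and 6.5. From CpG 14- through the dense block to CpG 5, the midpoint mostly came later with decreasing coordinate. CpG 6 came before CpG 7 and CpG 9 before CpG 10 on both strands, against this order. It did not hold over the whole window, since CpG 1+ (6.0), CpG 1- (6.13) and CpG 3- (6.32), beyond CpG 5, came before it. CpG 5+, the last, and CpG 11+, the second, lie at opposite ends of the block and in the same reads.

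CpG 14- ran from 22.6 to 40.3% over the samples of P60 segment 3 (median 32.9%), from 44.6 to 68.9% in segment 5 (median 54%), from 64.7 to 78.4% in segment 7 (median 70.5%) and from 71.1 to 84.4% in segment 9 (median 80.6%). It had made 47.5% of its rise at segment 5, and its largest step between neighbouring segments, 12.8 points, was from segment 4 to 5. It was also the position that fell most from segment 1 (42.4% ± 5.76) to segment 3 (31.9% ± 7.50). CpG 5+ ran from 12.2 to 26.2% in segment 3 (median 18.4%), from 11.9 to 32.6% in segment 5 (median 23.1%), from 20.3 to 50.1% in segment 7 (median 33.4%) and from 56.7 to 73.2% in segment 9 (median 67.7%). It had made 5.51% of its rise at segment 5 and 29.2% at segment 7, and its largest step, 18.2 points, was the last, from segment 8 to 9. CpG 5- had made 4.46% and 33%, with its largest step of 18.4 points also from segment 8 to 9. The 2 strands of CpG 5, read by different probes, thus followed one course. No segment mean of CpG 5+ up to segment 7 exceeded 32.9%, which was the median of CpG 14- in segment 3.

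**Figure D2:**
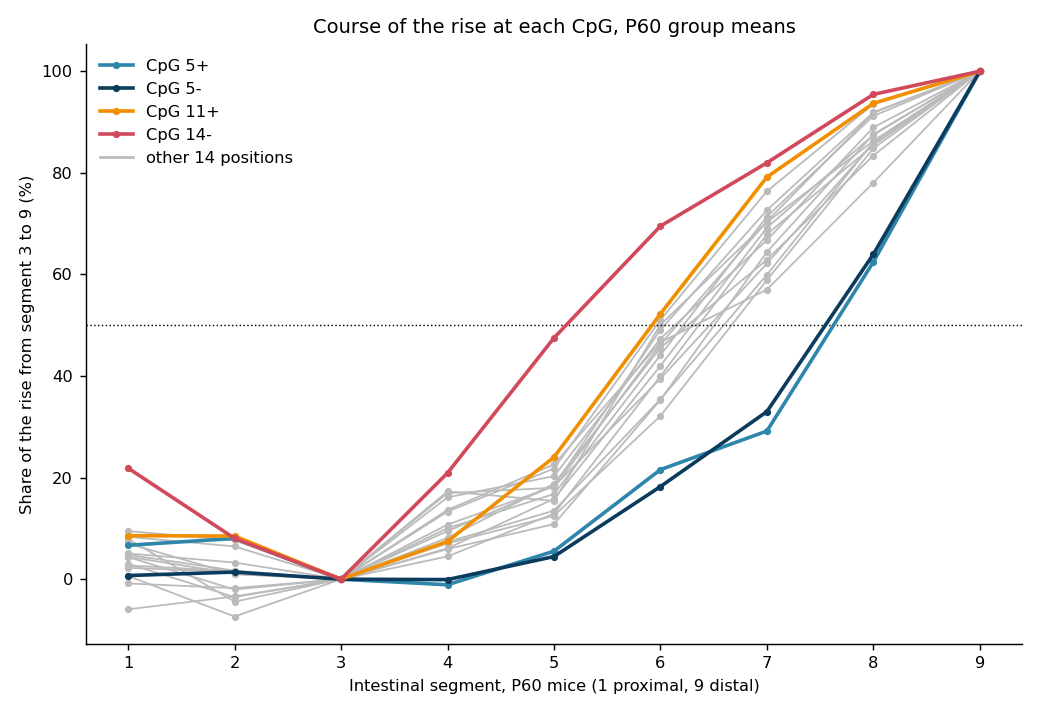
Share of each CpG's rise from segment 3 to segment 9 (vertical axis, percent; 0 is the segment 3 mean and 100 the segment 9 mean) against the P60 intestinal segment (horizontal axis). CpG 14- reached 47.5% at segment 5, when CpG 11+ was at 24%, CpG 5+ at 5.51% and CpG 5- at 4.46%. Grey lines are the other 14 positions, including CpG 11- in the probe arm.

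The early and late pair, picked from the P60 values with the values of all groups already seen, was then compared in the P90 samples. The p-values of this paragraph do not account for that choice of pair and segments, so they are no independent test of the order. Between segments 3 and 7, CpG 14- was higher by 23.2 points distally and CpG 5+ by 6.86 points, and the gap between them widened by 16.3 points (permutation test over 26 samples within diets, two-sided, p = 0.00039, adjusted over 2 tests 0.00078). Between segments 7 and 8 the order turned: CpG 14- was higher by 6.28 points and CpG 5+ by 16.6 points, and the gap closed by 10.3 points (permutation test over 27 samples, two-sided, p = 0.0032, adjusted 0.0032). Without LAC+ replicate 7 of segment 3, the highest sample of its group, the first change was 15.5 points (permutation p = 0.00054). In the lac- means, CpG 14- had made 85.2% of its rise from segment 3 to 8 at segment 7, and CpG 5+ 40.7%. In the LAC+ means these shares were 71.0 and 10.6%, and in the P60 means over the same segments 85.9 and 46.7%.

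Modification differed between the 5 segments of the P90 mice at most positions. Under a quasi-binomial model of the read counts with diet as a covariate, each cytosine had 1 F test over the 5 segments. Of the 18 CpGs, 15 passed a Bonferroni-adjusted p of 0.01 over all cytosines tested, where 24.1% of the 642 CpGs tested in the locus did (155). Without CpG 11- these were 14 of 17. All 18 were higher in segment 8 than in segment 3, by a median of 29.1 points with diet held, against a median of 0.67 points over all CpGs. CpG 1+ (adjusted p = 0.37), CpG 1- (adjusted p = 0.15) and CpG 5+ (adjusted p = 1.0) did not pass, with differences of 20.4, 19.3 and 23.4 points.

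CpG 11+ had the largest difference between segments 3 and 8, 40.4 points, from 39 to 79% (F test over the 5 segments, adjusted p = 4.9e-12). The other adjusted p-values of this paragraph are also over the 5 segments, and segment 8 against segment 3 was not tested on its own. Its segment 3 samples ran from 21.1 to 68.2% in lac- mice (median 24.8%) and from 17.8 to 77.5% in LAC+ mice (median 41.9%). In segment 8 they ran from 73.3 to 86.7% in lac- mice (median 80.9%) and from 70.8 to 80.6% in LAC+ mice. The single LAC+ sample at 77.5% reached into the segment 8 range, and the others of segment 3 lay below it. CpG 10+, at the median of the 18, differed by 28.7 points, from 61.8 to 90.2% (adjusted p = 1.2e-08). It ran from 42.2 to 84.1% in lac- segment 3 (median 52%), from 39.4 to 91.8% in LAC+ segment 3 (median 65.4%), and from 81.4 to 95.8% over both diets in segment 8, so the ranges overlapped. CpG 14- differed by 29.4 points, from 46.8 to 76% (adjusted p = 4.7e-07), and CpG 5- by 27 points (adjusted p = 0.0057). CpG 5- did not pass under limma or with the replicate number as a block (adjusted p = 0.026 in both), and CpG 3- did not pass under limma (adjusted p = 0.62).

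**Figure D3:**
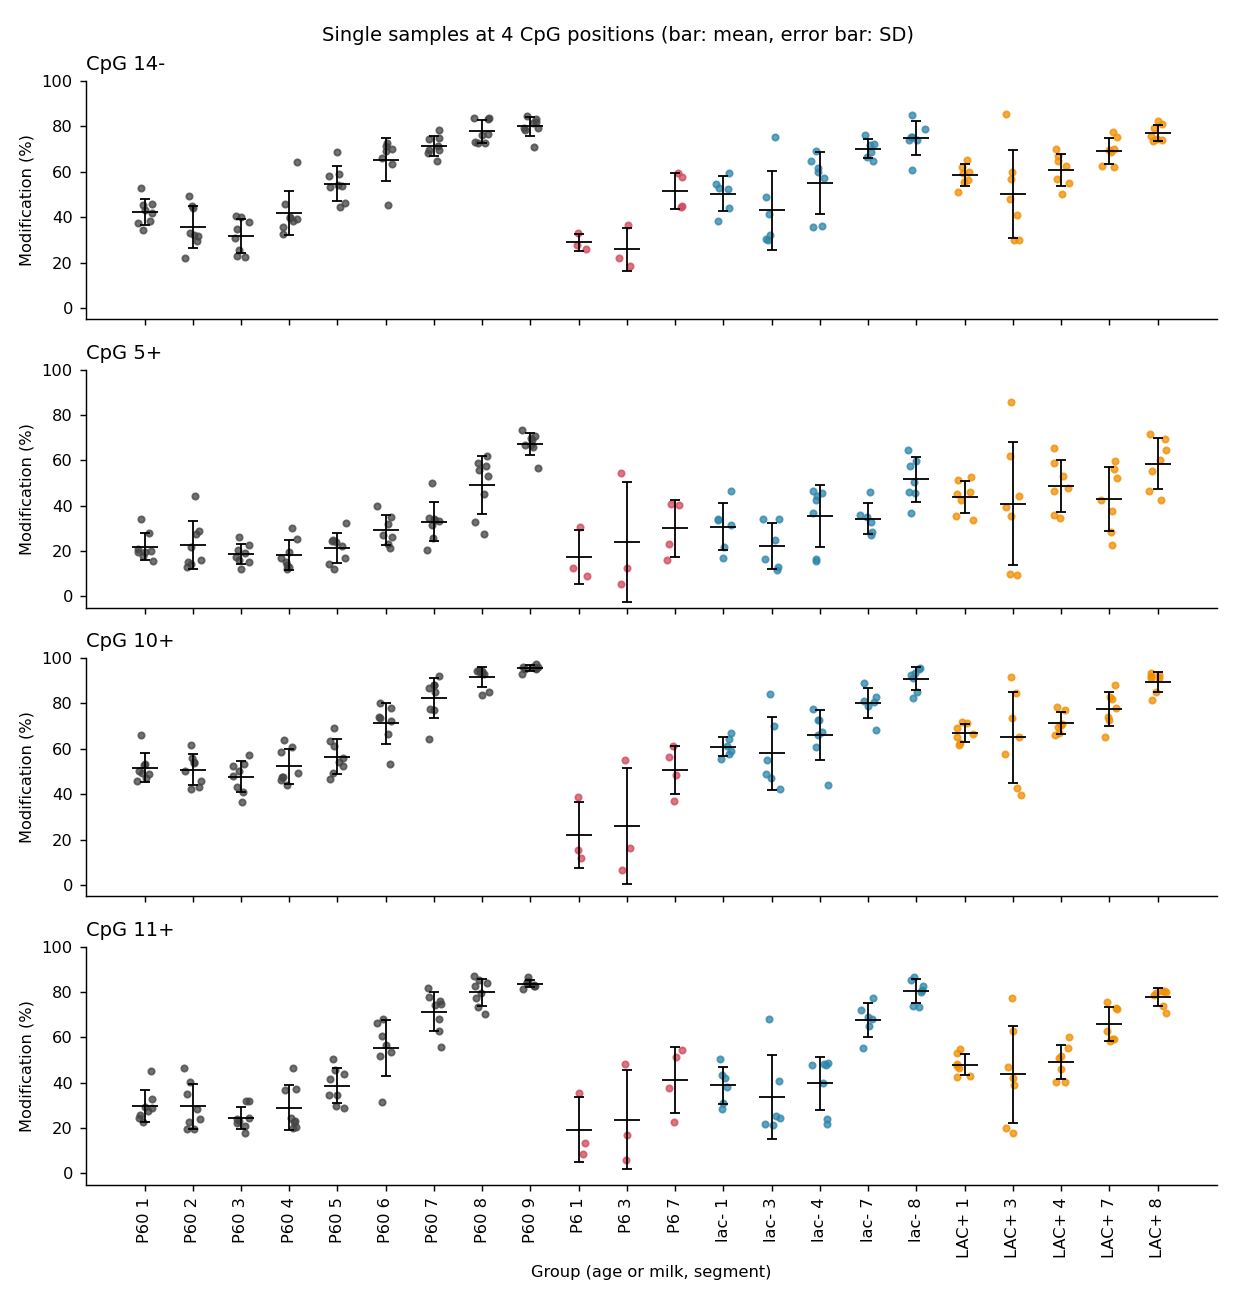
DNA modification (percent) of every sample at CpG 14-, CpG 5+, CpG 10+ and CpG 11+ (panels), by group along the horizontal axis, with points for samples, the horizontal bar for the mean and the error bar for SD. CpG 14- rises from segment 3 on in P60, and CpG 5+ mainly after segment 7. Among the P90 segments, segment 3 is spread most with both diets together, and LAC+ replicate 7 is its highest sample.

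Among the segments of the P90 mice, segment 3 was spread most with both diets together. LAC+ replicate 7 had a mean over the 18 CpGs of 83.3%, above the mean of every sample of segment 8, while its group mates ran from 26.2 to 68%. It was the only sample of the series on its sequencing lane number. Without it the same number of CpGs, 15, passed between the P90 segments, and the median difference was 31.7 points. The level of this sample and its lane cannot be told apart.

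Single pairs of segments were less clearly apart. Between segments 3 and 7, 0 of 18 CpGs passed the quasi-binomial test (0.156% of all CpGs), 13 of 18 had an unadjusted p under 0.05 against 28.2% of all CpGs, and limma on the log2 odds also called 0. The median difference was 15.5 points, and the lowest adjusted p was 0.25, at CpG 14-. Between segments 7 and 8, 0 of 18 passed (0.0% of all CpGs, limma 0), although all 18 had an unadjusted p under 0.05, against 11.1% of all CpGs, with a median difference of 14.2 points. Between segments 1 and 4, which shared lanes with each other but not all with the rest, 0 of 18 passed (0.595% of all CpGs, limma 0), 13 of 18 had an unadjusted p under 0.05 against 39.3% of all CpGs, and the median difference was 7.15 points. CpG 9- showed the largest difference there, 11.6 points, and CpG 11+ one of 1.08 points (unadjusted p = 0.34), although CpG 11+ had the largest difference between segments 3 and 8.

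The milk given made no difference that passed the test at any position. The quasi-binomial test called 0 of 18 CpGs in segments 1, 3, 4 and 7 and 0 of the 16 CpGs at or under 90% in segment 8, limma called 0 in each, and 0.0% of all CpGs tested passed in each of the 5 segments. An unadjusted p under 0.05 was found at 4 of 18 CpGs in segment 1 (6.76% of all CpGs tested) and at 0 in segments 3, 4, 7 and 8, where 5.62, 5.93, 14.3 and 20.5% of all CpGs tested had one. The median LAC+ minus lac- difference was 5.58, 9.25, 5.52, -0.14 and 0.196 points in segments 1, 3, 4, 7 and 8. In segments 1 and 4 all LAC+ samples came from files marked as merged, a step not given in the sources used here. The lac- samples from merged files had means over the 18 CpGs of 44.9 to 52.2% in segment 1 and 49.5 to 62.6% in segment 4, and the 2 unmerged samples of each lay at 37.1 and 38.7%, and at 32.3 and 45.7%. With merged files alone, the median differences were 1.67 and 0.577 points, and in segment 3 without LAC+ replicate 7 it was 3.44 points. In segments 3, 7 and 8 the diets sat mostly on different lane numbers, with 1 lac- sample in each on a lane that LAC+ samples had. Against that 1 sample the median differences were -6.26, 9.5 and 6.69 points, so the sign turned in segments 3 and 7, and diet and lane can hardly be told apart there.

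With all samples, CpG 5+ had the largest LAC+ minus lac- difference of all positions in each segment, at 13.1, 18.5, 13.4, 8.52 and 7.03 points in segments 1, 3, 4, 7 and 8. In segment 1 its lac- samples ran from 16.8 to 46.3% (median 32.7%) and its LAC+ samples from 33.7 to 52.6% (median 45%), so the groups overlapped. The difference at CpG 5+ was 7.32 and 5.62 points with merged files alone in segments 1 and 4, and 11 points in segment 3 without LAC+ replicate 7. On lanes with both diets, with 1 lac- sample each, it was -0.594, 7.58 and 13.1 points in segments 3, 7 and 8, where CpG 5-, CpG 8- and CpG 5- had the largest differences (5.79, 14.7 and 18.3 points). Over all samples, the unadjusted p was 0.03 in segment 1 and between 0.092 and 0.21 in the others, and each adjusted p was 1.0. CpG 14-, the early position, differed by 8.26, 7.16, 5.89, -0.72 and 2.39 points in the same order.

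At P6 the window was less modified, and the spread between the few samples was wide. The mean over the 18 CpGs was 27, 13.7 and 10.1% in the 3 samples of segment 1, 41.6, 12.8 and 6.62% in segment 3, and 42.7, 32.9, 24 and 34.8% in segment 7, for replicates in order. The sample numbered 1 was highest in each segment. Between the P6 segments, 0 of 18 CpGs passed the quasi-binomial test (0.0% of all CpGs, limma 0) and 2 of 18 had an unadjusted p under 0.05 (9.39% of all CpGs). The median segment 7 minus segment 3 difference was 14.2 points. It rested on single samples, at 24.2 points without segment 3 replicate 1 and 6.81 points, with 16 of 18 positions higher, without segment 3 replicate 3.

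CpG 14- had the largest of these P6 differences, 25.8 points. It read 33.1, 25.8 and 27.7% in segment 1, 36.6, 22.1 and 18.6% in segment 3, and 57.6, 44.6, 44.9 and 59.3% in segment 7. All 4 samples of segment 7 lay above all samples of segments 1 and 3 (quasi-binomial F test over the 3 segments, unadjusted p = 0.0045, adjusted 1.0). CpG 5+ read 30.7, 12.6 and 8.85% in segment 1, 54.3, 12.6 and 5.30% in segment 3, and 40.2, 40.6, 23 and 15.9% in segment 7, and its segments overlapped. CpG 5- had the smallest segment 7 minus segment 3 difference outside the arm, 3.48 points, followed by CpG 5+ at 5.87 points. With each P6 sample left out in turn, the smallest difference outside the arm was always at CpG 5- or CpG 5+. The values themselves moved, from -3.51 points without segment 3 replicate 3 to 21 points without segment 3 replicate 1 at CpG 5+, and from 22.2 to 31.3 points at CpG 14-. The largest was at CpG 14-, or at CpG 10+ without segment 3 replicate 1 or segment 7 replicate 3.

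From P6 to P60, modification was higher at nearly all positions, and outside the arm least so at CpG 5+. The P60 samples are those that chose the window, so the counts of tests in this comparison are given beside the share over all CpGs and nothing is read from them. All P6 samples were on 1 lane number that no P60 sample had, so age and lane cannot be told apart. In segment 7, the median difference was 30.0 points. The quasi-binomial test called 1 of 18 CpGs, CpG 11- in the probe arm (0.93% of all CpGs), limma and the fit with the replicate number as a block called 0, and 17 had an unadjusted p under 0.05 (42.8% of all CpGs). In segment 1 the median was 18.5 points, with 0 of 18 passing (0.624% of all CpGs, limma 0) and 17 under an unadjusted 0.05 (35.4% of all CpGs). In segment 3 it was 12.4 points, with 0 passing (0.623% of all CpGs, limma 0) and 8 under an unadjusted 0.05 (31.3% of all CpGs). Segment 3 rested on single P6 samples. Without replicate 1, the sample at 41.6%, the median was 22.3 points, all 18 positions were higher at P60 and 3 passed (CpG 9+, 9- and 10-), without replicate 2 it was 8.73 points with 15 higher, and without replicate 3 it was 7.16 points with 12 higher.

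Every P60 sample lay above every P6 sample at 16 of 18 CpGs in segment 7 (17.1% of all CpGs), at 12 of 18 in segment 1 (12.4%) and at 1 of 18 in segment 3 (13.9%), CpG 9-. CpG 9- had the largest difference in segments 1 and 7. It read 20.8, 11.1 and 9.41% in the P6 samples of segment 1 against 43.8 to 66% at P60 (median 50.5%), and 43.4, 22.7, 21.5 and 35.1% in segment 7 against 67.9 to 90.2% (median 85.6%). The means differed by 37.3 points in segment 1 and 51.1 points in segment 7. CpG 5+ was the other extreme, with P60 minus P6 differences of 4.59 points in segment 1, -5.35 in segment 3 and 2.95 in segment 7. Without P6 replicate 1 of segment 3, which read 54.3% beside 12.6 and 5.30%, the segment 3 difference at CpG 5+ was 9.76 points, and without replicate 2 or 3 it was -11.1 or -14.7 points. With each P6 sample left out in turn, CpG 5+ ran from 0.33 to 11.3 points in segment 1 and from -1.72 to 6.5 points in segment 7. In segment 7 its 4 P6 samples, 15.9 to 40.6%, lay within the range of the P60 samples, 20.3 to 50.1%, apart from the lowest. The 2 positions not separated in segment 7 were CpG 5+ and CpG 5-. CpG 5- differed by 6.13 points in segment 1, 0.871 in segment 3 and 14.3 in segment 7, so its strands did not change alike. In segment 3 CpG 11+ differed by 0.807 points, less than CpG 5-.

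**Figure D4:**
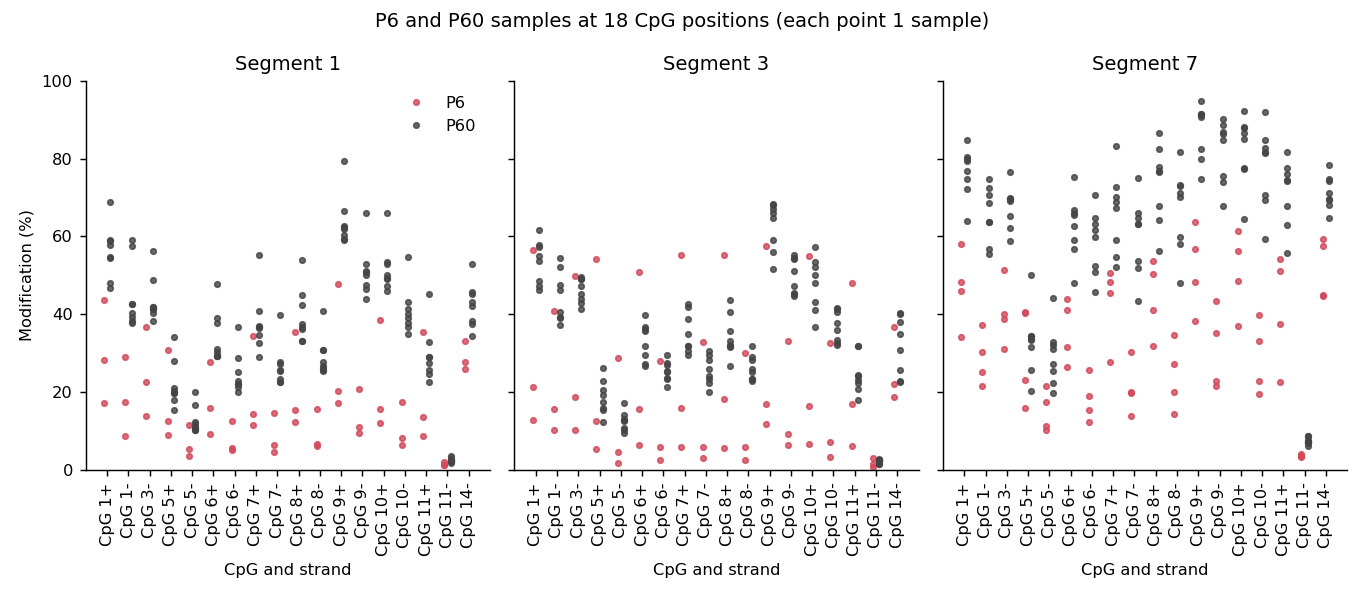
DNA modification (percent) of the P6 (red) and P60 (grey) samples of segments 1, 3 and 7 (panels) at each of the 18 CpG positions (horizontal axis), each point 1 sample. In segment 7 the ages do not overlap at 16 positions and overlap at CpG 5+ and CpG 5-.

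Older mice on lactose-free milk were compared with P60 mice over the same 5 segments, with segment held. The P60 samples are those that chose the window, and age and milk differ together and cannot be told apart. The P90 lac- means were higher at all 18 positions, by a median of 5.62 points, whereas the median over all CpGs was -0.58. On the lane numbers that held both, with 19 lac- and 39 P60 samples, the median was 1.28 points. In segments 1 and 4 this left out the lac- samples from merged files. Their means over the 18 CpGs were 48.38 and 57.01%, against 37.85 and 38.97% in the unmerged ones. Lane and merging cannot be told apart there. The test called 1 of 18 CpGs, CpG 1+, with a difference of 10.2 points, where 14.8% of all CpGs tested were called (95 of 642), and 16 of 18 had an unadjusted p under 0.05 against 66.8% of all CpGs. Limma, the replicate number as a block, lane as a covariate and the shared lanes alone each called 0, and on the shared lanes CpG 1+ differed by 6.07 points. Its group means were 72.1% ± 6.61, 64.3% ± 14.4, 76.5% ± 12.5, 78.3% ± 5.61 and 86.6% ± 5.32 in segments 1, 3, 4, 7 and 8 of the lac- mice, and 56.1, 53.5, 59.1, 76.5 and 81.8% at P60.

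The plus strand read higher than the minus strand at each of the 7 sites with both strands outside the arm. In P90 samples the difference ran from 7.63 points at CpG 6 to 13.5 points at CpG 1, and the plus strand was higher in 64 to 67 of 67 samples (sign-flip permutation test, two-sided, p = 1e-05 at each site, the smallest that 100000 flips can give, adjusted over the 7 sites 1e-05). In P6 samples it ran from 12.9 to 16.6 points and was positive in 10 of 10 samples at each site (exact sign-flip permutation p = 0.002, the smallest the design allows, adjusted 0.002), and in P60 samples from 5.81 to 9.69 points. The difference was not constant along the intestine. Over the 6 sites of the dense block its median was 11 points in P60 segment 2 and 1.4 points in segment 9, 15.7 points in LAC+ segment 1, 3.62 points in lac- segment 8 and 20.6 points in P6 segment 7. Each strand was captured by its own probe, so the strands and the capture of each probe cannot be told apart.

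Between samples of one group, the CpGs of the window moved together. Deviations from the group mean were correlated across the 71 P60 samples with a median Pearson's r of 0.876 (Spearman's rho 0.878) for positions in the same probe, whose values come from the same reads. The medians were 0.877 (rho 0.884) for the opposite strand of the same site, which has other reads of the same DNA, and 0.791 (rho 0.815) for other sites in other probes. Across the 67 P90 samples these medians were 0.937, 0.94 and 0.905 (rho 0.923, 0.898 and 0.854), and across the 10 P6 samples 0.963, 0.96 and 0.939 (rho 0.939, 0.927 and 0.903). Samples that were high at one position were thus high at nearly all. The lowest Pearson's r in P60 was between CpG 5- and CpG 14- (r = 0.533). By Spearman's rho (0.522), and by r on the log2 odds (0.481), the lowest P60 pair was CpG 9- and CpG 14-. In P6 the lowest r was between CpG 5+ and CpG 14- (r = 0.556). In P90 it was between CpG 5+ and CpG 9- (r = 0.64).

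**Figure D5:**
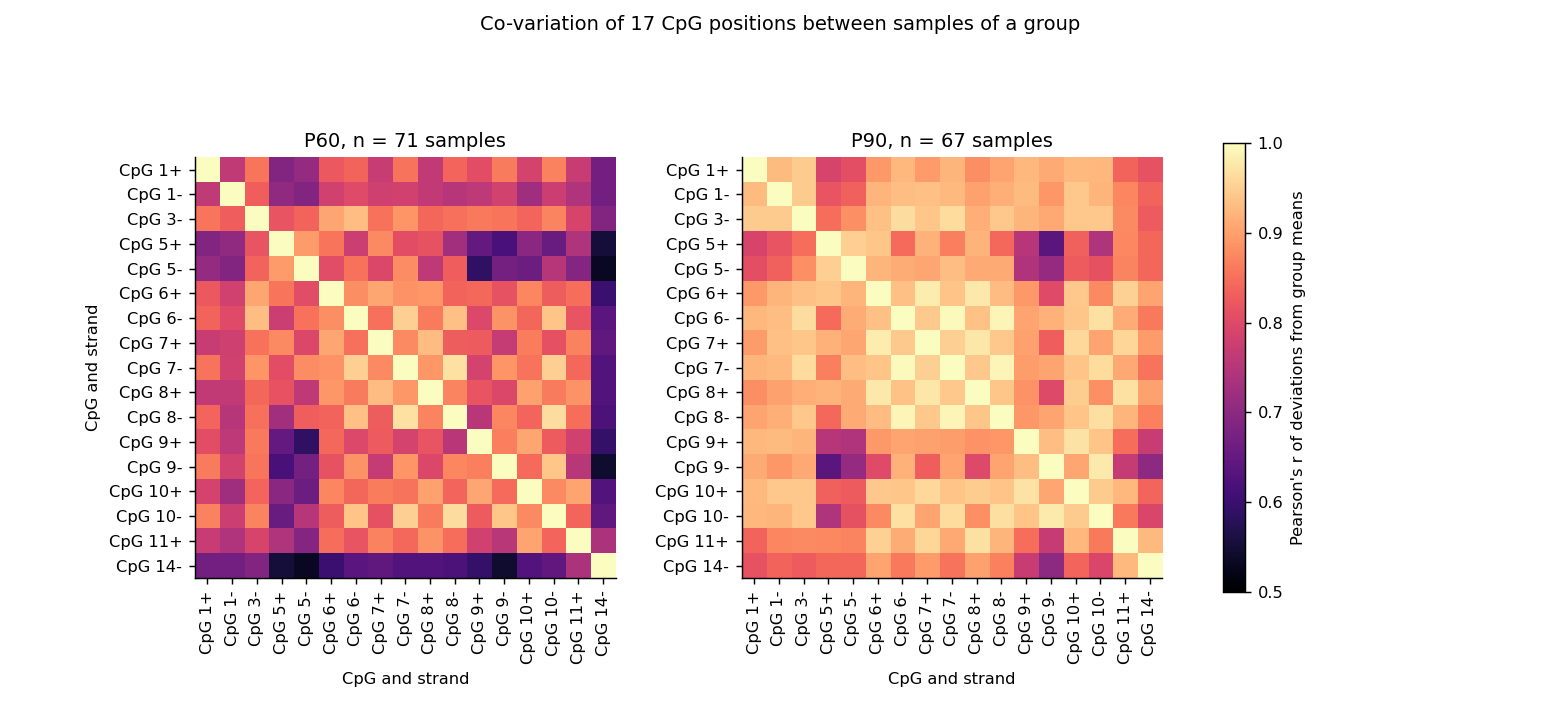
Pearson's r (colour, 0.5 to 1.0) between the deviations from group means of the 17 CpG positions outside the probe arm, across 71 P60 samples (left) and 67 P90 samples (right). CpG 14- stands apart in P60 and CpG 5 in both panels, where the lowest values are 0.533 and 0.64.

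The first principal component of these deviations held 81% of the variance in P60, 90.2% in P90 and 93.6% in P6. The mean of the 18 positions deviated between samples of a group with an SD of 5.72 points in P60, 9.76 in P90 and 11.3 in P6, against 0.363, 0.496 and 0.538 points for the mean of the 572 covered CpGs outside the window, an average over many more positions. For single CpGs, the median SD within groups was 6.5 points in the window and 1.43 points outside it in P60, 11 and 1.54 points in P90, and 12.5 and 2.21 points in P6, and the most variable CpG outside had 7.2, 16.6 and 19.2 points. The r between the window's and the locus's deviations was 0.613, 0.594 and 0.311, over the same libraries. A change in the mix of cells and a change in each cell cannot be told apart in these bulk samples, and no marker gene could be checked, since the files hold DNA modification alone.

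The CpGs nearest to the window rose less along the P60 intestine, or not at all. The nearest covered CpG before it, 128335981 on the minus strand in intron 13 and 1790 bp away, had means of 82.2% ± 2.90 in P60 segment 3 and 91.0% ± 1.76 in segment 9. The nearest after it, 128339366 on the plus strand in exon 12 and 981 bp away, had 91.8% ± 0.394 and 91.0% ± 1.07. In the regions set beside it, P60 means in segments 3 and 9 were 81.5 and 89.4% over 9 CpGs of Lct exon 1, 42.9 and 54.4% over 16 CpGs of Lct intron 2, and 8.77 and 10.1% over 9 CpGs of Mcm6 intron 1. These differences are descriptions, since the window was chosen on them. Cytosines of the window outside CG context, 138 in number, had group means between 0.42 and 0.53% in all 22 groups.

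Among the 572 covered CpGs more than 500 bp from the window, those whose means over the 22 groups were most like the window's mean were 128298481 on the plus strand of Lct exon 9 (r = 0.977), 128353302 on the plus strand of Mcm6 intron 3 (r = 0.975) and 128298482 on the minus strand of Lct exon 9 (r = 0.974). Their P60 means in segments 3 and 9 were 46.5 and 77.3%, 60.6 and 77.9%, and 48.2 and 77.3%. The points share libraries and groups.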

How the data were processed

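The Lct-Mcm6 locus was captured with 314 padlock probes over 90 kb of bisulfite-converted DNA designed on GRCm38. The authors trimmed reads (Trimmomatic 0.32) and called cytosines with Bismark, per the labels, and deposited, for each sample and cytosine, the counts of modified and of unmodified reads. Other filters upstream are not given in the sources used here. Modification was computed as modified over all reads, in percent, where a cytosine had more than 30 reads. Counts were tested with a quasi-binomial logistic model per cytosine (F test, 1 dispersion, not under 1), in which at least 3 samples per group had to pass, with Bonferroni adjustment over all cytosines tested and a threshold of 0.01. For diet, CpGs at or under 90% were tested. Differences between groups with a covariate are means of the differences within its levels. Alternatives were limma 3.58.1 on log2 odds (pseudocount of 0.5 reads), Benjamini-Hochberg adjustment at 0.05, read minimums of 10 and 100, lane as a covariate (the lane number of the sample, with the flow cell not given in the sources used here), a replicate block and left-out samples. The early and late pair was compared by permuting segments within diets. Unadjusted p-values are named as such. Software was Python 3.11.15, NumPy 2.4.6, SciPy 1.17.1, pandas 2.3.3, Matplotlib 3.10.9 and R 4.3.3. The models were tested on simulated data.

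Members, regions and motifs were chosen with earlier results of these data known. CpGs shown sample by sample were those with the lowest, median and highest P90 difference between segments 8 and 3 (CpG 11-, CpG 10+ and CpG 11+). CpG 14-, CpG 5+ and CpG 9- were chosen after their values were seen. Outside the window, the nearest covered CpG on each side and the 3 most alike were named. Replicate numbers come from the source names. In P60 segment 1, replicates 1 and 4 were the closest of 28 pairs (chi-square per CpG 2.94, others 3.58 to 11.5) and 1 of them carries a mark of a repeat. Whether they are 1 sample cannot be told from these values. They were counted separately, and counting them as 1 moved the mean of that group from 36.3 to 36.8%.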

Additional observations from a re-analysis of the deposited data

Results flagged for a closer look

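Each CpG and group of 4 to 10 samples was checked for a sample whose gap to its nearest neighbour took more of the group's range than Dixon's 95% critical value, and 26 of 360 such checks found one, where chance gives about 18 (1 in 20). The CpGs share reads and samples, so the findings are not independent.

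Replicate 5 of P60 segment 1 was the high sample at 8 positions, with 55.3% at CpG 7+, 39.8% at CpG 7-, 40.7% at CpG 8-, 79.5% at CpG 9+, 66% at CpG 9-, 65.9% at CpG 10+, 54.8% at CpG 10- and 45.3% at CpG 11+. Replicate 1 of P60 segment 9 was the low sample at 8 positions, with 76.8% at CpG 3-, 56.7% at CpG 5+, 48.5% at CpG 5-, 71.4% at CpG 6-, 78% at CpG 7-, 84% at CpG 8-, 91.3% at CpG 10- and 71.1% at CpG 14-. These 2 libraries account for 16 of the 26.

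Among the others, replicate 1 of P60 segment 6 was low at CpG 8+ (40.8%) and CpG 14- (45.2%), and replicate 1 of P60 segment 4 was high at CpG 14- (64.1%). Replicate 7 was high at CpG 5+ in P60 segment 7 (50.1%), at CpG 5- in P60 segment 5 (26.1%) and at CpG 8+ in P60 segment 2 (59.5%). In lac- mice, replicate 3 of segment 7 was high at CpG 5- (40.2%), replicate 4 of segment 3 was high at CpG 11- (8.60%) and replicate 5 of segment 4 was low at CpG 3- (43.1%). In LAC+ mice, replicate 1 of segment 7 was low at CpG 1+ (58.7%).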

How the results depend on the processing

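Read minimums of 10 and 100 moved no count of passing CpGs by over 1.5 times. Of the 15 CpGs that passed between the P90 segments, limma called 13 and the replicate block 14, and LAC+ samples alone gave 4 and lac- samples alone 2, with fewer samples in each fit. Benjamini-Hochberg adjustment at 0.05 in place of Bonferroni gave 3 CpGs for segments 3 and 7, 12 for segments 7 and 8, 7 for segments 1 and 4, 8, 1 and 15 for P6 against P60 in segments 1, 3 and 7, and 15 for P60 against P90 lac-. Lane as a covariate gave 4 for segments 7 and 8 (CpGs 8-, 9-, 10- and 11-), where 0 passed without it, and the cause was not tested. The counts under all alternatives have no share over all CpGs beside them, so nothing about the window is read from them. For P6 against P60 in segment 7, limma and the replicate block gave 0, and leaving out 1 sample at a time, also replicate 1 in all P6 segments, gave 0 in each case, against the 1 in the probe arm. In segment 3 the same gave 0 to 3, with 3 without replicate 1. For P60 against P90 lac-, limma, the replicate block, lane as a covariate and the shared lanes alone gave 0 against 1. Over 130 alternatives of the tested comparisons, the median difference turned its sign in 2, diet in segments 3 and 7 on lanes with both diets (-6.26 and 9.5 points), and at least 1 CpG turned in 15, all in diet or with a P6 sample left out. Same-numbered samples did not deviate together throughout (r over 0.1 in 53 of 131 pairs of the P90 segments and 7 of 9 pairs of the P6 segments), so the numbers are not taken to pair samples, and the replicate block changed no other count. Leaving out P6 samples was not run for P60 against P90 lac-, which holds none. The P6 groups hold 3 or 4 samples each. The alternatives without LAC+ segment 3 replicate 7, with merged files alone and without the P6 samples numbered 1, the lane settings of P60 against P90 lac-, and the test of the early and late pair, were chosen after seeing the data.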
